A study of Homo sapiens with 10 samples.

Results

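The RASSF family is made up of the Ras association domain proteins RASSF1 to RASSF10, and its transcripts were followed here across extracellular vesicles (EVs) and whole cells of PC3, a line of human prostate cancer cells that was established from a metastasis in bone. The 10 members were the rows of the deposited count table whose GENCODE 29 symbol was one of those names, out of 94946 entries in the table. Of the 10 members, 8 had at least 1 count in some library, 7 had enough counts to be tested, and RASSF9 and RASSF10 were at 0 in all 10 libraries. RASSF3 was chosen by its measured level in EVs against cells in these same libraries, so its EV-to-cell values are given as a description without a test.

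The study prepared total RNA libraries from EV pellets of PC3 cultures and from the cells. The pellets came from 3 centrifugation steps, which the labels call 2.8K, 10K and 100K without a unit. Each pellet is named after its step, from EV 2.8K through EV 10K to EV 100K, and has 3 libraries, numbered as sets 1 to 3. Where values of the 3 pellets follow one another, they are in that order. A single library of whole PC3 cells, from which no EVs were isolated, served as the reference. All groups come from the same line, grown with 10% fetal bovine serum, glutamine and antibiotics, and the labels name no treatment. No label says whether the sets are separate cultures. The p-values below therefore measure only the spread between these libraries, which may be technical.

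RASSF proteins have no known enzymatic activity and act as adaptors that bind Ras-like small GTPases and other partners through their Ras association domain. RASSF1 to RASSF6 end in a second interaction module, the SARAH domain, which pairs with the same module in the Hippo kinases MST1 and MST2 (genes STK4 and STK3) and in their scaffold SAV1. RASSF7 to RASSF10 carry the Ras association domain near the N-terminus and lack a SARAH domain. RASSF1 is a tumour suppressor gene that is silenced by promoter methylation in many cancers, prostate cancer among them, and RASSF3 has been linked to MDM2 and p53 regulation.

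The libraries held between 5424964 counts (set 2 of EV 100K) and 28735081 counts (cells), and no EV library held more than 14977955. The summed level of 12 genes of PC3 and prostate epithelium was 2624 to 3480, 2049 to 2656 and 984 to 1168 CPM (counts scaled to a library of 1000000) in the 3 pellets and 2066 CPM in cells. KRT8 and KRT18, keratins of simple epithelium, were present in every library, whereas the prostate genes KLK3, KLK2 and FOLH1 were at 0 throughout. Of 12 leukocyte markers at most 3 had counts in any group, with a summed level of 0 to 6.93 CPM and PTPRC at 0 in all libraries. The 12 erythroid and serum genes summed to 0 to 4.31 CPM, and to 0 in EV 100K and cells. Fibroblast markers summed to 89.4 to 198 CPM in EVs and 381 CPM in cells, and neuronal markers to 356 to 1088 CPM in EVs and 266 CPM in cells. No part of these marker levels in the results on the RASSF genes was tested.

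RASSF3 dominated the family in every EV library and was the 1 member that rose with a passed test at each step from the slowest to the fastest pellet. The gene (ENSG00000153179.12) lies on the plus strand of chromosome 12, from 64507001 to 64697567 in GRCh38, and its merged exons cover 4226 bases. Levels are given as CPM after scaling by the trimmed mean of M-values (TMM). RASSF3 measured 786, 508 and 651 CPM in sets 1 to 3 of EV 2.8K. In EV 10K it measured 4607, 3099 and 3639 CPM, and in EV 100K 8270, 6169 and 7381 CPM. The cell library held 39.2 CPM, from 1367 counts. The 4 groups did not overlap at any point: every EV 2.8K library lay above the cells, every EV 10K library above EV 2.8K, and every EV 100K library above EV 10K.

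Expressed as group means, RASSF3 was at 648 ± 139, 3782 ± 764 and 7273 ± 1055 CPM (SD, n = 3). The ratio of these means to the single cell library was 16.5, 96.4 and 185. On the log2 scale of the fitted model the differences from cells were 4.04, 6.59 and 7.53, and 6.06 for the mean of the 3 pellets. Scaled by library totals alone, the last value was 5.74. By the size of its mean difference RASSF3 ranked 51st from the top of 13535 protein-coding genes in the model. CPM values are relative, so more RASSF3 RNA per vesicle and less of other RNA cannot be told apart.

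**Figure D1:**
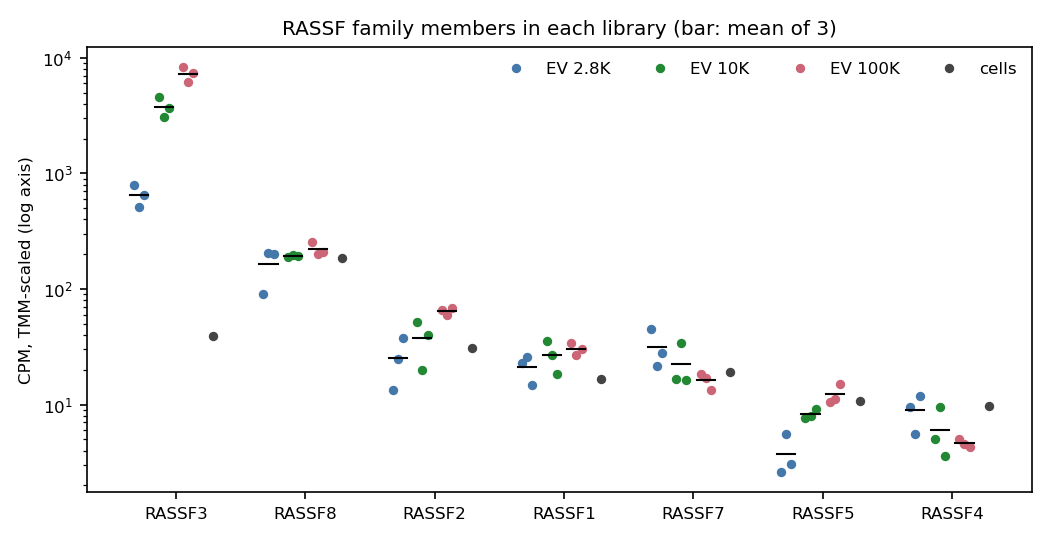
Level of each of the 7 tested RASSF members in every library, as TMM-scaled CPM on a log axis; points are libraries coloured by group and bars are means of 3 libraries. RASSF3 goes from 39.2 CPM in cells to means of 648, 3782 and 7273 CPM in the 3 pellets, while RASSF8, at 90.7 to 255 CPM, stays at a like level in EVs and cells.

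Among all entries of the table, ranked by CPM, RASSF3 was between the 6th and 7th most abundant in EV 100K and between the 8th and 15th in EV 10K. In EV 2.8K it ranked between 141 and 209, and in cells 4785. Per kilobase of exon and among 19969 protein-coding genes, it ranked 155 to 254, 15 to 32 and 4 to 7 in the 3 pellets and 3881 in cells. RASSF3 took 0.0665 ± 0.00890, 0.362 ± 0.0582 and 0.681 ± 0.0557% of all counts in the pellets (SD, n = 3), against 0.00476% in cells.

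The 3 pellets were compared with each other with edgeR's quasi-likelihood test over 15525 genes, with Benjamini-Hochberg adjustment over all of them. Those 3 comparisons share libraries and are not independent of one another. RASSF3 was singled out from these same libraries, so its pellet p-values cannot be taken as independent of that choice. RASSF3 was higher in EV 10K than in EV 2.8K by 2.53 on the log2 scale (SE 0.22, edgeR adjusted p = 1.96e-06). In EV 100K it was higher than in EV 2.8K by 3.47 (SE 0.23, edgeR adjusted p = 1.54e-08), a ratio of means of 11.2. The step from EV 10K to EV 100K was smaller, at 0.94 (SE 0.21, edgeR adjusted p = 0.00609, and 2.39e-05 to 0.042 over 16 alternative settings). By size of difference between EV 100K and EV 2.8K, RASSF3 ranked 187th from the top of 12014 protein-coding genes.

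Between EV 10K and EV 2.8K, RASSF3 was the 1 member of 7 that passed, where 6.38% of all genes tested passed. It was again the 1 member of 7 between EV 100K and EV 10K, where 10.9% of genes passed. Between EV 100K and EV 2.8K, RASSF3 and RASSF2 passed, 2 of 7 members, against 25.8% of all genes. That count is close to the share over all genes. The 7 members are those that passed a filter on low counts, which leaves out RASSF6, RASSF9 and RASSF10. RASSF3, which is in each count of members that passed, had been singled out beforehand from the same libraries. Counted by ranges of CPM that do not overlap, it was 2 of 7 members between EV 10K and EV 2.8K (21.4% of all genes), 6 of 7 between EV 100K and EV 2.8K (44.6%) and 4 of 7 between EV 100K and EV 10K (35.9%).

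**Figure D2:**
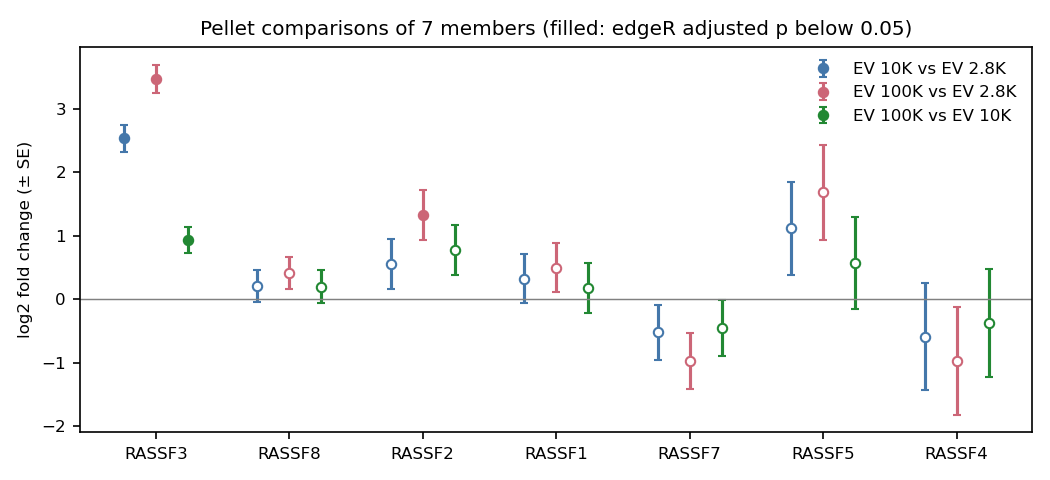
Log2 fold change with its standard error for the 7 tested members in the 3 pellet comparisons; filled points passed an edgeR adjusted p of 0.05. RASSF3 is filled in all 3 comparisons, at 2.53, 3.47 and 0.94, and RASSF2 is filled only between EV 100K and EV 2.8K, at 1.33.

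RASSF2, a SARAH-domain member that binds the MST kinases and K-Ras, was the other member that rose with a passed test. It measured 13.5, 24.7 and 37.4 CPM in EV 2.8K, 52.2, 20.0 and 39.9 CPM in EV 10K, and 65.5, 59.5 and 68.0 CPM in EV 100K. The cells held 30.7 CPM. All EV 100K libraries lay above all others, whereas the EV 10K and EV 2.8K ranges overlapped. RASSF2 was higher in EV 100K than in EV 2.8K by 1.33 on the log2 scale (SE 0.40, edgeR adjusted p = 0.0183). Scaled by library totals alone, the difference was 1.15 and its edgeR adjusted p 0.0539, so that the call was lost. The other pellet comparisons of RASSF2 gave 0.56 (SE 0.39, edgeR adjusted p = 0.482) for EV 10K against EV 2.8K and 0.77 (SE 0.39, adjusted p = 0.254) for EV 100K against EV 10K.

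RASSF1, which in its main isoform tethers MST kinases and microtubules, showed no difference between pellets that passed. Its level was 23.0, 25.9 and 14.6 CPM in EV 2.8K, 35.2, 26.8 and 18.3 CPM in EV 10K, and 33.9, 26.8 and 30.5 CPM in EV 100K. The cells held 16.7 CPM from 581 counts, summed over all transcripts of the gene, so that isoforms cannot be told apart. The EV 100K libraries were all above those of EV 2.8K, but the difference of 0.50 had an SE of 0.39 (edgeR adjusted p = 0.413). Of the 9 EV libraries, 8 were above the cell library.

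RASSF5, known as NORE1 and RAPL, binds active Ras and Rap1 and links Rap1 to integrin adhesion. It was low, with 34 to 96 counts in each EV library and 377 in cells. Its level was 2.6, 5.57 and 3.08 CPM in EV 2.8K, 7.60, 7.95 and 9.13 CPM in EV 10K, 10.5, 11.2 and 15.1 CPM in EV 100K, and 10.8 CPM in cells. The 3 pellets did not overlap with one another, in the same order as for RASSF3, and the EV 2.8K libraries were all below the cells. The difference between EV 100K and EV 2.8K was 1.68 (SE 0.74) and did not pass with edgeR (adjusted p = 0.109), whereas DESeq2 gave 1.75 with an adjusted p of 0.0263.

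RASSF4, also a SARAH-domain member, stood at 9.49, 5.57 and 11.9 CPM in EV 2.8K, 5.03, 9.47 and 3.61 CPM in EV 10K, and 5.06, 4.59 and 4.33 CPM in EV 100K, with 9.76 CPM in cells. The EV 100K libraries lay below all EV 2.8K libraries, with a difference of −0.97 that did not pass (SE 0.85, edgeR adjusted p = 0.48). RASSF6 was barely detected, with 0 to 9 counts in any library and 23 in all, and was not tested. It was at 0 in the 3 EV 2.8K libraries, where 3 counts would be 0.200 to 0.292 CPM of the library total.

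Among the members without a SARAH domain, RASSF8, a protein of cell junctions, was the most abundant after RASSF3 in EVs and the most abundant of all in cells. It measured 90.7, 204 and 200 CPM in EV 2.8K, 188, 196 and 194 CPM in EV 10K, 255, 202 and 210 CPM in EV 100K, and 187 CPM in cells. Apart from set 1 of EV 2.8K, all EV libraries lay between 188 and 255 CPM. No pellet comparison passed, and the largest difference was 0.41 between EV 100K and EV 2.8K (SE 0.26, edgeR adjusted p = 0.279). The difference between EV 10K and EV 2.8K was 0.21, and it turned to −0.084 without set 1 of EV 2.8K.

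RASSF7, a centrosomal and cell cycle protein of the same branch, had pellet means in the opposite order to RASSF3, as did those of RASSF4. It measured 45.5, 21.4 and 28.1 CPM in EV 2.8K, 16.8, 33.8 and 16.4 CPM in EV 10K, and 18.5, 17.1 and 13.5 CPM in EV 100K. The EV 100K libraries were all below the EV 2.8K libraries and below the 19.2 CPM of the cells. The difference between EV 100K and EV 2.8K, −0.97, did not pass (SE 0.44, edgeR adjusted p = 0.117). RASSF9 and RASSF10 had no count in any library, where 3 counts would correspond to 0.104 CPM of the library total in cells and 0.200 to 0.553 in EVs.

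In the comparison of the mean of the 3 pellets with cells, 0 of the 6 tested members other than RASSF3 passed, where 4.43% of 22370 genes passed with edgeR. The cell library has no replicate, so this test assumes that cell libraries would vary as EV libraries do. The 6 differences were 0.63 for RASSF1, 0.35 for RASSF2, 0.23 for RASSF7, 0.04 for RASSF8, −0.58 for RASSF5 and −0.63 for RASSF4, with SEs of 0.31 to 1.22. Their edgeR adjusted p-values ran from 0.874 to 1.0, and 0 of the 6 had an unadjusted p under 0.05. DESeq2 also called 0 of them. The smallest SE was that of RASSF8, and the largest, 1.22 and 1.10, were those of RASSF4 and RASSF5, the members with the fewest counts. The differences of RASSF7 and RASSF8 turned to −0.083 and −0.25 when libraries were scaled by their totals.

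RASSF3 made up most of the family's counts in EVs and a small part of them in cells. Its share was 71.2 ± 8.79, 92.6 ± 1.24 and 95.4 ± 0.291% in the 3 pellets (SD, n = 3). In EV 2.8K the share was 81.0% in set 1, 63.9% in set 2 and 68.8% in set 3. In cells it was 12.5% (95% Wilson interval 11.9 to 13.1%, counting error only), and RASSF8 made up most of the rest. The other members summed to 256 ± 61.4, 294 ± 11.0 and 350.5 ± 34.3 CPM in the pellets, and to 274 CPM in cells. Within those other members RASSF8 took 62.6 ± 11.8%, 65.7 ± 3.72% and 63.3 ± 2.11% in the 3 pellets and 68.1% in cells. RASSF2 took 9.52 ± 2.81%, 12.7 ± 5.32% and 18.4 ± 1.53%, and 11.2% in cells. RASSF7 took 13.9 ± 9.36%, 7.61 ± 3.39% and 4.68 ± 0.688%, and 7.0% in cells.

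**Figure D3:**
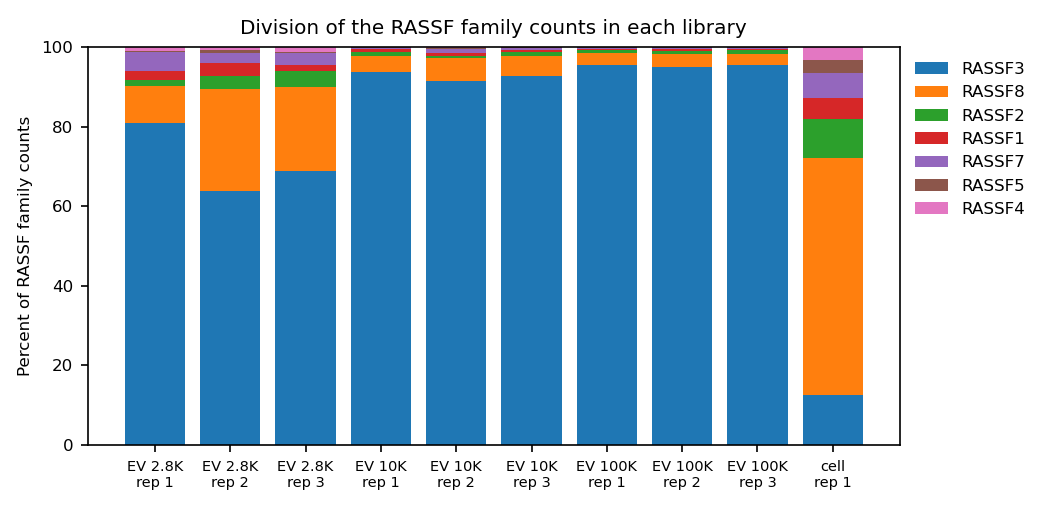
Division of the counts of the RASSF family in each library, as stacked percentages. RASSF3 fills 63.9 to 95.6% of the bar in every EV library and 12.5% in cells, where RASSF8 fills most of it.

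Because the transcripts differ in length, levels were compared between members per kilobase of merged exon. In cells the order was RASSF8 with 24.5 CPM per kilobase, RASSF3 with 9.28, RASSF7 with 7.70, RASSF2 with 5.34, RASSF1 with 4.53, RASSF5 with 1.55 and RASSF4 with 1.03, from 1 library without a measure of spread. In EV 2.8K, RASSF3 led with 153 CPM per kilobase, ahead of RASSF8 with 21.6 and RASSF7 with 12.7, whose ranges overlapped. In EV 10K, RASSF3 stood at 895 CPM per kilobase and RASSF8 at 25.3, and the ranges of RASSF7, RASSF1 and RASSF2 below them overlapped, at 8.97, 7.26 and 6.49. In EV 100K, RASSF3 stood at 1721 CPM per kilobase and RASSF8 at 29.2, followed by RASSF2 with 11.2, RASSF1 with 8.25 and RASSF7 with 6.57. RASSF2 thus came after RASSF7 and RASSF1 in EV 2.8K and EV 10K and ahead of both in EV 100K, without overlap there. RASSF5 and RASSF4 closed the order of detected members in every group, at 0.49 to 1.76 CPM per kilobase, with RASSF6 below 0.06. RASSF4 lay above RASSF5 in EV 2.8K, with overlapping ranges, and below it in EV 10K and EV 100K, without overlap. Per kilobase, RASSF3 made up 76.4, 94.6 and 96.8% of the family in the 3 pellets and 17.2% in cells.

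Across libraries, levels of the other members followed RASSF3 to different degrees. Over the 9 EV libraries the Pearson correlation of log2 CPM with RASSF3 was 0.88 for RASSF5, 0.73 for RASSF2, 0.60 for RASSF1, 0.48 for RASSF8, −0.64 for RASSF4 and −0.65 for RASSF7. The points share pellets, so these values mostly restate the group differences. With the cell library added, over 10 libraries, the value was 0.34 for RASSF5, 0.54 for RASSF2, 0.68 for RASSF1, 0.30 for RASSF8, −0.32 for RASSF7 and −0.65 for RASSF4.

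Genes with a pattern more like that of RASSF3 lay outside the family. Among 8920 named genes with a mean of at least 10 CPM, the 8 with the highest Pearson correlation of log2 CPM over 10 libraries were KIF1C (0.999), ZNF707 (0.997), UACA (0.994), IGIP (0.994), ZEB1 (0.994), PALM3 (0.991), SAMD4A (0.989) and SH3PXD2A (0.988). The median over the 8920 genes was −0.11, and 217 lay above 0.9. KIF1C, which encodes a kinesin motor, was more abundant than RASSF3, at 320 CPM in cells and means of 3697, 16743 and 25551 CPM in the 3 pellets. SH3PXD2A, which encodes the podosome scaffold TKS5, went from 11.9 CPM in cells to means of 94.5, 606 and 1452 CPM. ZEB1, a repressor of epithelial genes, went from 55.6 CPM to 264, 866 and 1171 CPM. IGIP was lowest, at 0.890 CPM in cells and 21.9, 109 and 254 CPM in the pellets. The means of all 8 had the same order, from cells through EV 2.8K and EV 10K to EV 100K, which the choice by likeness favours.

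**Figure D4:**
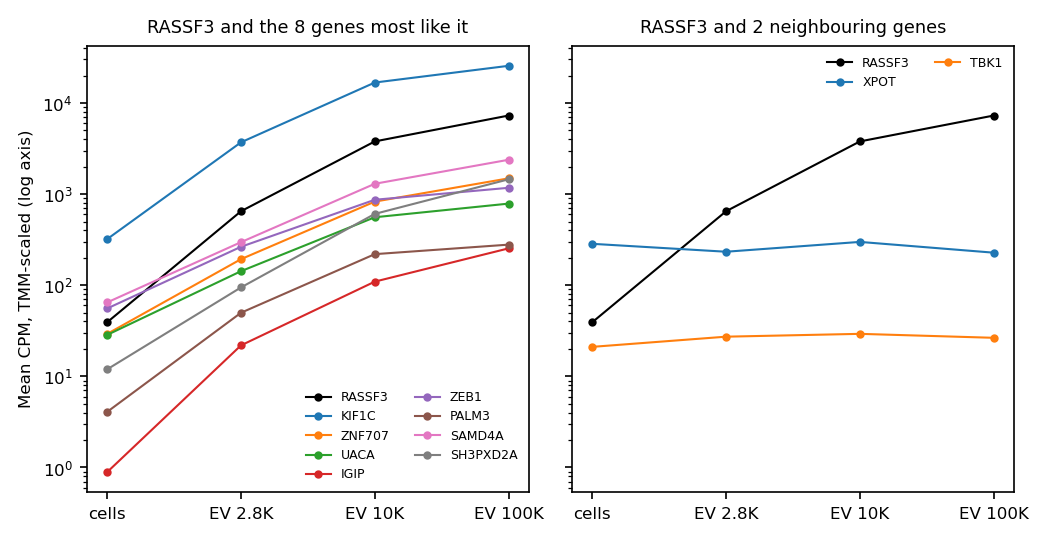
Mean TMM-scaled CPM (log axis) in cells and the 3 pellets of RASSF3 with the 8 genes most like it (left) and of RASSF3 with 2 neighbouring genes on chromosome 12 (right). The curves on the left all rise from cells to EV 100K, but by different factors. RASSF3 goes from 39.2 to 7273 CPM, KIF1C from 320 to 25551, ZEB1 from 55.6 to 1171 and IGIP from 0.890 to 254. XPOT and TBK1 on the right have no higher mean in the fastest pellet than in the slowest.

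The neighbouring protein-coding genes of RASSF3 on chromosome 12 that are given next were below its level in every EV 100K library. XPOT, a tRNA exporter upstream of it, stood at 233 ± 52.7, 299 ± 35.2 and 227 ± 12.5 CPM in the 3 pellets (SD, n = 3) and at 285 CPM in cells. TBK1, the innate immune kinase next to RASSF3, stood at 27.2 ± 13.4, 29.3 ± 8.60 and 26.5 ± 5.12 CPM and at 21.1 CPM in cells. Neither passed in any of the 4 comparisons. C12orf56 did not exceed 4.04 CPM in any library. TBC1D30 was at 0 in EV 2.8K and at 2.02 to 3.23 CPM in EV 100K, from 11 to 23 counts (edgeR adjusted p = 0.0437), with 2.27 CPM in cells. That call held among the left-out libraries only without set 1 of EV 10K, and without any other the adjusted p was 0.0597 to 0.132. WIF1 was at 0 in all libraries.

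The entries of the table that overlap RASSF3 held few or no counts. The entry AC025262.3 on the other strand, which shares 360 exon bases with RASSF3, was at 0, and the microRNA MIR548C in an intron of RASSF3 had 6 counts over all libraries. The antisense gene AC078962.2, which shares 167 exon bases with RASSF3, had no entry among those counted, so its level is not known. The antisense gene RASSF8-AS1, which shares 37 exon bases with RASSF8, was at 19.0 ± 14.1, 12.2 ± 4.47 and 8.47 ± 1.91 CPM in the 3 pellets (SD, n = 3) and 15.7 CPM in cells, and passed in no comparison. RASSF1-AS1 shares 659 exon bases with RASSF1 and had 47 counts over all libraries. Among 20 catalogue entries of long noncoding RNAs named after a RASSF gene, 5 had counts, and none exceeded 28 in a library. RASSF4 shares 695 exon bases with DEPP1 and 98 with TMEM72-AS1. For the strand setting of the counting, the choice is not given in the sources used. Reads from the shared bases therefore cannot be assigned to 1 gene, and the levels of RASSF1, RASSF3, RASSF4 and RASSF8 are uncertain to that degree.

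Genes of the Hippo pathway, to which the SARAH domain connects RASSF1 to RASSF6, rose more often than they fell between EV 2.8K and EV 100K. Of 31 tested genes of a list of 32, 11 rose and 4 fell in EV 100K against EV 2.8K, with a median log2 difference of 0.51 beside −0.06 for all genes. The share of genes that rose or fell was 12.0 and 13.8% over all 15525 genes. The 4 of 31 that fell are close to the share over all genes. The 11 that rose were MAP4K4, VGLL4, TEAD4, AJUBA, PTPN14, MOB1B, NF2, AMOTL1, TAOK1, WWTR1 and TEAD1, and the 4 that fell were CCN1, CCN2, FRMD6 and AXL. The direct binding partners of the SARAH domain were not among them: STK4 gave 0.41 (edgeR adjusted p = 0.157), SAV1 0.51 (0.275) and STK3 −0.74 (0.453), and YAP1, the pathway's effector, gave −0.03 (0.957).

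MAP4K4, a kinase upstream of LATS1 and LATS2, was the most abundant gene of those that rose, at 1023 ± 66.0, 2619 ± 244 and 3682 ± 255 CPM in the 3 pellets (SD, n = 3) and 464 CPM in cells. Its log2 difference between EV 100K and EV 2.8K was 1.83 (SE 0.17, edgeR adjusted p = 5.18e-07). NF2, or merlin, which brings LATS kinases to the membrane, went from 196 ± 16.5 CPM to 502 ± 87.8 CPM, a difference of 1.34 (SE 0.19, edgeR adjusted p = 4.27e-05). PTPN14, a phosphatase that binds YAP1, went from 94.2 ± 27.6 to 253 ± 11.0 CPM (1.4, SE 0.24, edgeR adjusted p = 0.000208). In the other direction, CCN1 and CCN2, secreted matrix proteins and classic YAP1 target genes, fell by 2.71 (SE 0.30, edgeR adjusted p = 2.6e-06) and 2.02 (SE 0.31, adjusted p = 7.08e-05). CCN1 went from 407 ± 184 to 63.0 ± 8.06 CPM and CCN2 from 116 ± 45.5 to 28.9 ± 5.65 CPM. FRMD6, a FERM-domain protein that acts upstream of the kinases, fell by 1.4 (SE 0.31, edgeR adjusted p = 0.00218).

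Between EV 10K and EV 2.8K, 3 Hippo genes rose (MAP4K4, WWTR1 and TEAD4) and 3 fell (CCN1, FRMD6 and CCN2) of the 31, where 4.15 and 2.22% of all genes did. MAP4K4 (1.34, SE 0.17, edgeR adjusted p = 7.6e-05) and CCN1 (−2.00, SE 0.29, adjusted p = 0.000245) kept their calls without any 1 library. The count of 6 dropped to 3 without set 1 of EV 2.8K and without set 2 or set 3 of EV 10K. WWTR1, the YAP1 homologue TAZ, gave 0.97 (edgeR adjusted p = 0.0141), and 0.0529 without set 2 of EV 2.8K, 0.055 without set 1 of EV 10K and 0.0608 without set 3 of EV 10K. TEAD4, a transcription factor bound by YAP1, gave 1.09 (edgeR adjusted p = 0.0384). Among runs with 1 EV library left out, TEAD4 kept its call only without set 3 of EV 2.8K or set 3 of EV 10K. Without each of the other EV libraries its edgeR adjusted p was up to 0.156, and with library totals it was 0.102. FRMD6 gave −1.25 (edgeR adjusted p = 0.0187), with 0.0689 and 0.0514 without set 1 or set 2 of EV 2.8K and 0.0531, 0.0734 and 0.115 without set 1, 2 or 3 of EV 10K. CCN2 gave −1.18 (edgeR adjusted p = 0.0217), with 0.0869 without set 1 of EV 2.8K and 0.115 and 0.0997 without set 2 or set 3 of EV 10K.

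Between EV 100K and EV 10K, 7 Hippo genes rose and 0 fell, where 3.70 and 7.23% of all genes did, with a median of 0.47 beside 0.01 for all genes. With edgeR no gene of the list passed downwards, although CCN1 (−0.70) and CCN2 (−0.84) had unadjusted p-values of 0.0236 and 0.0115. The 7 were NF2, PTPN14, AMOTL1, TAOK1, TEAD1, AJUBA and VGLL4. NF2 gave 1.17 (SE 0.19, edgeR adjusted p = 0.000595), PTPN14 1.08 (SE 0.24, adjusted p = 0.00538) and AMOTL1, an angiomotin that binds YAP1, 1.08 (SE 0.24, adjusted p = 0.00578). The count was 3 without set 3 of EV 10K, 4 without set 1 or set 2 of EV 100K, and 11 without set 1 of EV 2.8K, a library outside this comparison.

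In the mean EV against cells, 2 of 32 Hippo genes were higher and 1 lower, where 2.56 and 1.88% of all genes were, and the median of −0.15 stood beside −0.16 for all genes. MAP4K4 was higher by 2.21 (SE 0.32, edgeR adjusted p = 8.26e-10) and WWTR1 by 1.62 (SE 0.32, adjusted p = 2.13e-05), in 9 of 9 EV libraries. AXL, a receptor tyrosine kinase and YAP1 target, was lower by −1.31 (SE 0.27, edgeR adjusted p = 9.26e-05). The count of 3 became 5 without set 1 of EV 2.8K and 6 with library totals. STK4, STK3, SAV1 and YAP1 gave 0.58, 0.03, 0.28 and 0.18 and did not pass.

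**Figure D5:**
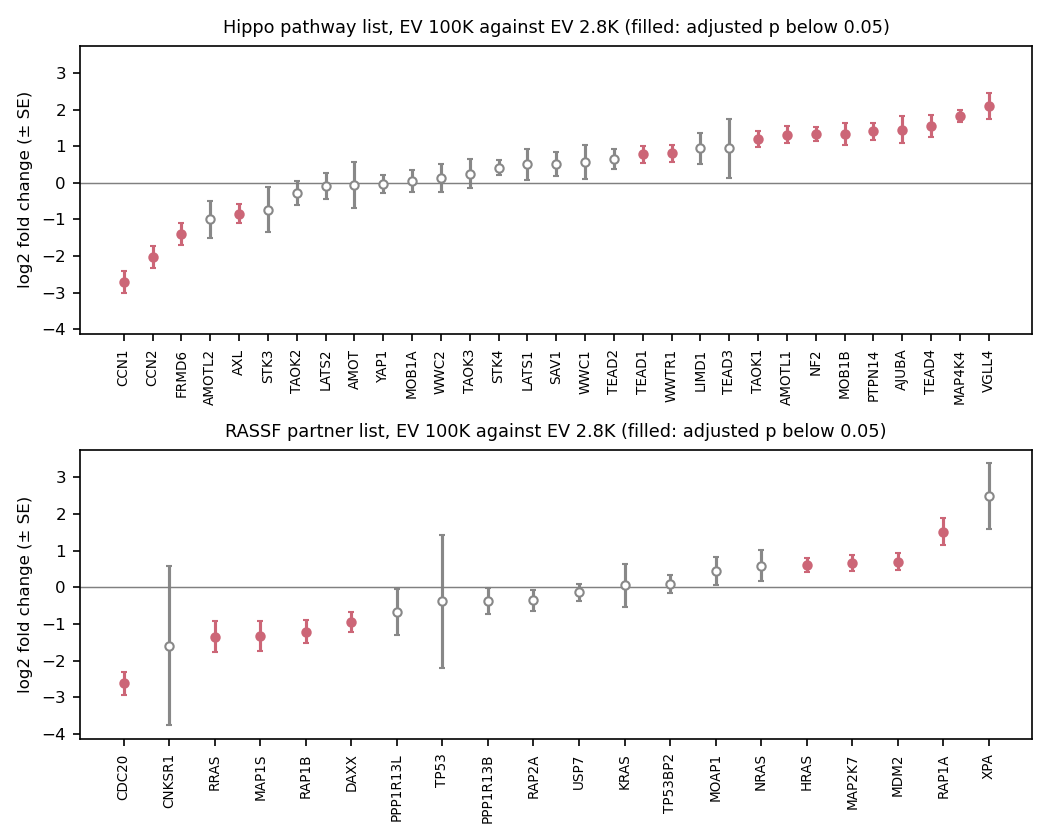
Log2 fold change with its standard error between EV 100K and EV 2.8K for the tested genes of the Hippo list (top) and of the list of RASSF partners (bottom), ordered by size; filled points passed an edgeR adjusted p of 0.05. In the Hippo list 11 genes are filled above 0 and 4 below, and in the partner list 4 above and 5 below, with CCN1 and CDC20 the lowest filled points.

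A list of 23 genes whose products bind or act with RASSF proteins showed no common direction. Of 20 tested, 4 rose and 5 fell in EV 100K against EV 2.8K, with a median of −0.25 beside −0.06 for all genes, of which 12.0% rose and 13.8% fell. CDC20, an activator of the anaphase-promoting complex that RASSF1 binds, fell by 2.62 (SE 0.31, edgeR adjusted p = 5.34e-06), from 173 ± 56.7 CPM to 28.4 ± 7.73 CPM. The Rap1 genes, whose products RASSF5 binds, moved apart: RAP1A rose by 1.52 (SE 0.37, edgeR adjusted p = 0.00471) and RAP1B fell by 1.21 (SE 0.30, adjusted p = 0.00569). RAP1A went from 14.8 ± 3.59 to 42.9 ± 4.32 CPM and RAP1B from 67.5 ± 21.9 to 29.7 ± 4.83 CPM. RRAS and MAP1S also fell and MAP2K7 also rose. The count of 9 was 5, 4 and 3 without set 1, set 2 and set 3 of EV 100K.

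MDM2, the p53 ubiquitin ligase on which RASSF3 has been reported to act, gave 0.70 between EV 100K and EV 2.8K (SE 0.23, edgeR adjusted p = 0.0349). It measured 68.5 ± 17.7, 85.1 ± 2.18 and 113 ± 4.22 CPM in the 3 pellets (SD, n = 3) and 57.9 CPM in cells. The call was lost without set 1 or set 3 of EV 2.8K (adjusted p = 0.0751 and 0.0739) and without set 1, 2 or 3 of EV 100K (0.102, 0.125 and 0.0945), and with library totals (0.146). HRAS gave 0.61 (SE 0.18, edgeR adjusted p = 0.0193), with 0.0835, 0.0795 and 0.0592 without set 1, 2 or 3 of EV 100K. With library totals HRAS had an adjusted p of 0.0774, and without the filter on low counts HRAS and MDM2 had 0.0641 and 0.0733. DAXX, a partner of RASSF1 and MDM2, gave −0.94 (SE 0.27, edgeR adjusted p = 0.0137), with 0.0808 and 0.0657 without set 2 or set 3 of EV 100K.

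In the remaining comparisons between 1 and 3 partner genes passed. CDC20 was the 1 of 20 that passed between EV 10K and EV 2.8K (−1.15, SE 0.29, edgeR adjusted p = 0.0233), where 6.38% of all genes did. That call was lost without set 1 or 2 of EV 2.8K (0.0591 and 0.0807) and set 2 or 3 of EV 10K (0.0893 and 0.143). Between EV 100K and EV 10K, CDC20 (−1.47, edgeR adjusted p = 0.00318) and RAP1B (−1.22, adjusted p = 0.0121) fell, 2 of 20, where 7.23% of all genes fell and 10.9% passed in either direction. A share of 2 in 20 is close to that background. RAP1B lost its call without set 3 of EV 10K (0.0621) and without set 1 or 3 of EV 100K (0.0663 and 0.067). In the mean EV against cells, 3 of 21 passed, where 4.43% of all genes did. HRAS was higher (1.35, SE 0.35, edgeR adjusted p = 0.00411), and CDC20 (−1.08, adjusted p = 0.0176) and USP7, a deubiquitinase of MDM2 (−0.99, adjusted p = 0.0331), were lower. The EV and cell levels of CDC20 overlapped: the cells held 153 CPM, and sets 1 and 2 of EV 2.8K lay above them at 225 and 181 CPM, whereas the other 7 EV libraries lay below. CDC20 gave 0.0509 without set 3 of EV 100K, and USP7 0.0528 without set 2 of EV 10K and 0.0752 without set 2 of EV 100K. With DESeq2 neither passed (0.136 and 0.0516), nor with its size factors in edgeR (0.0609 and 0.105), and CDC20 did not pass with GENCODE entries alone (0.0768).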

How the data were processed

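The authors deposited 1 table of raw read counts for PC3 libraries, 3 for each of 3 EV pellets and 1 for cells, over 45574 GENCODE entries and 49372 entries of a long noncoding RNA catalogue. Per the labels' protocols, RNA was extracted with Trizol and made into libraries with a stranded total RNA kit for low input. Per the submitters' processing notes, bcl2fastq 2.19.1.403, cutadapt 2.7, STAR 2.6.1d, featureCounts 1.6.3 and the build GRCh38 were used. Of the annotation release, the strand setting and multi-mapping reads nothing is stated there. All 45574 identifiers are found in GENCODE 29, which gave symbols and exon lengths, and 2 listed genes appear there under older names (CCN1 as CYR61, CCN2 as CTGF).

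Genes were kept by filterByExpr (groups as design, minimum count 10) and tested under R 4.3.3 with edgeR 4.0.16, with TMM scaling and the robust two-sided quasi-likelihood test with a threshold of 0.05 after Benjamini-Hochberg adjustment over all genes tested. Pellets were compared in a model of the 9 EV libraries (15525 genes) and EVs with cells in a model of 10 libraries (22370 genes). In the model of 10 libraries the median prior degrees of freedom were infinite. Genes with that value take their spread from 1 shared trend. The members and gene lists were chosen with earlier results of these data known. From the Hippo and partner lists the named genes are up to 3 per direction with the smallest p in each comparison, plus STK3, STK4, SAV1, YAP1 and MDM2. VGLL4, AJUBA, MOB1B, TAOK1, TEAD1, RRAS, MAP1S and MAP2K7 are named beside counts after their values were seen. Each edgeR SE is the size of the log2 difference divided by the square root of the F statistic of its test. Likeness used log2 CPM with a prior count of 2. The scripts were tested on simulated data. Wilson intervals used scipy 1.17.1 under Python 3.11.15, and figures matplotlib 3.10.9. Alternatives were other scalings, DESeq2 1.42.0, no filter on low counts, no mitochondrially encoded genes, GENCODE entries alone, the set number as a block, and each EV library left out in turn. Sequences of the transcripts and proteins were not analysed here. Some genes outside the family are not reported here.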

Additional observations from a re-analysis of the deposited data

How the results depend on the processing

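Of 441 alternative values of the results on members, 431 kept their reading. Of the others, 7 reversed in direction, 1 lost its call, 1 gained a call, and 1 was a count of members called that changed. RASSF3 kept its pellet calls under every alternative run, with log2 differences of 2.37 to 2.71 (EV 10K against EV 2.8K), 3.35 to 3.63 (EV 100K against EV 2.8K) and 0.82 to 1.11 (EV 100K against EV 10K), and its mean EV difference from cells ran from 5.74 to 6.18. Scaling by library totals moved the median of all genes by −0.11, −0.14 and −0.30 in EV 10K against EV 2.8K, EV 100K against EV 2.8K and EVs against cells, and size factors of the DESeq2 kind by 0.12 in the last. With library totals RASSF2 was lost (adjusted p = 0.0539), leaving 1 member called between EV 100K and EV 2.8K, and against cells RASSF7 (−0.083) and RASSF8 (−0.25) reversed and 6 Hippo genes passed. With DESeq2 RASSF5 passed (0.0263), 1635 genes and 3 partner genes passed between EV 10K and EV 2.8K (990 and 1 with edgeR), and 1 partner gene passed against cells, as with its size factors in edgeR. With GENCODE entries alone 2 partner genes passed between EV 10K and EV 2.8K. Per kilobase, the share of RASSF3 in the family was 94.6 and 96.8% in EV 10K and EV 100K, and 17.2% in cells.

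Leaving out 1 library at a time reversed RASSF8 in EV 10K against EV 2.8K (−0.084 without set 1 of EV 2.8K, up to 0.46 without set 2) and against cells (−0.021 without set 2 and −0.016 without set 3 of EV 2.8K, up to 0.14 without set 1). It reversed RASSF4 (0.11 without set 2 of EV 10K, down to −0.65 without set 3) and RASSF1 (−0.037 without set 3 of EV 10K, up to 0.43 without set 1) in EV 100K against EV 10K. None of these differences passed in either form. For EV 10K against EV 2.8K the counts ran from 3 to 6 Hippo genes, 0 to 2 partner genes and 557 (without set 1 of EV 10K) to 1173 of all genes. For EV 100K against EV 2.8K they ran from 13 to 16, 3 to 9 and 2807 to 4137. For EV 100K against EV 10K they ran from 3 to 11, 1 to 3 and 979 (without set 1 of EV 100K; 1017 without set 3, 1033 without set 3 of EV 10K) to 2549 (without set 1 of EV 2.8K). Against cells they ran from 3 to 5, 2 to 3 and 826 to 1529 (without set 1 of EV 2.8K). The counts of members called did not move, at 1, 2 and 1 between pellets and 0 against cells. The causes of these shifts were not tested.

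Libraries with the same set number deviated together weakly at most, with correlations of −0.008 to 0.046 over 9 pairs, mostly above 0. Other pairs of libraries from different pellets gave −0.035 to 0.028, mostly below 0. These values do not settle whether the numbers pair the samples, and the main model leaves the set number out. With the set number as a block, the counts of members called stayed at 1, 2 and 1, those of all genes were 1075, 3964 and 1875, and RASSF3 gave 2.53, 3.48 and 0.95. Among named genes that block took away the calls of TEAD4 between EV 10K and EV 2.8K (adjusted p = 0.0509) and TBC1D30 between EV 100K and EV 2.8K (0.0761). Depth limits RASSF4, RASSF5 and RASSF6 most, with fewer than 140 counts in each EV library.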
